A study of Mus musculus with 6 samples.

Results

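The genes that carry the excitatory neuron lineage from progenitor to postmitotic neuron were followed in newborn mouse neocortex: the basic helix-loop-helix (bHLH) factors Neurog2, Neurod1, Neurod2, Neurod6 and Bhlhe22, and the T-box factor Eomes. They were taken by symbol from a deposited table of 15703 genes, and all 6 were found there. They were picked with the difference between the genotypes already known, so that difference is described for each of them and no p-value is given for it. Calls that include the 6 genes are counted only as a description. Whole neocortex was taken on postnatal day 0, the day of birth, from 3 wild type (WT) mice and from 3 conditional knockouts (cKO) of genotype Tcf4 f/f; Emx1Cre/+, all of strain C57BL/6. In the cKO both Tcf4 alleles are floxed, and a Cre recombinase driven by Emx1 acts in the dorsal telencephalic lineage that gives rise to cortical excitatory neurons and glia, not in interneurons, microglia or vessels. The labels do not say whether the WT mice carried Cre or floxed alleles. The libraries are called WT 1 to 3 and cKO 1 to 3. The titles give each library its own code, but nothing states that they came from separate litters, so p-values measure the spread between these libraries.

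Cortical excitatory neurons arise from apical progenitors, or radial glia, which express Pax6 and line the ventricle. Neurog2, a proneural bHLH factor, starts neuronal differentiation in these cells. Many daughters become intermediate progenitors marked by Eomes (also called Tbr2), and Neurod1 follows as these cells leave the cycle. Neurod2, Neurod6 and Bhlhe22 are expressed mainly in the postmitotic neurons that follow. Factors of the Neurog and Neurod families bind DNA as dimers with E proteins, the class to which Tcf4 belongs, at short motifs called E-boxes, and Id proteins block such dimers by binding the E proteins.

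Values are FPKM, read counts scaled to the exon length of the gene and to a size taken for the library, so levels can be compared between genes. The library size at which low values became whole reads was 23.2 to 26.07 M. The median-of-ratios factor was 1.003 in each library, so this size may be a scaling factor and not the number of reads. At that size the values of the listed genes add up to 25.4 to 28.8 M reads per library, more than the size itself in each library, so depth and read numbers are approximate; the cause was not tested. The targeted gene Tcf4 was at 71.2, 75.6 and 75.3 FPKM in wild type, against 56.5, 60.6 and 55.3 FPKM in cKO. It fell by 0.36 on the log2(FPKM + 1) scale (SE 0.0617, limma adjusted p = 0.00411, n = 3 per group), with no overlap between the groups. That value counts every annotated exon and every cell of the tissue, not the floxed part alone. Of the markers of neocortical excitatory neurons, Tbr1 was at 42.4 to 44.6 FPKM in WT libraries and 37.9 to 40.3 FPKM in cKO libraries, and the glutamate transporter gene Slc17a7 was listed in each, at 10.9, 9.81 and 7.74 FPKM in WT libraries and 8.62, 7.04 and 7.64 FPKM in cKO libraries.

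In WT the 6 genes fell into a high and a low set. Neurod6 was at 296 ± 21.8, Neurod2 at 133 ± 11.8 and Bhlhe22 at 106 ± 10.5 FPKM (SD, n = 3), above 99.6%, 98.6% and 98.1% of listed genes. Neurod1 was at 7.82 ± 0.744, Eomes at 6.78 ± 0.332 and Neurog2 at 5.23 ± 0.629 FPKM, higher than 59.4%, 55.5% and 49.0% of listed genes. No neighbours in this order overlapped in WT, although the highest Eomes library (6.999 FPKM) lay just under the lowest Neurod1 library (7.08 FPKM). In cKO the order of the means was the same, but Neurod2 overlapped with Bhlhe22, and Eomes with Neurog2. All values are from bulk tissue, in which fewer cells of a type and less RNA per cell cannot be told apart.

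In the cKO the 3 genes of the low set were all higher, and the 3 genes of the high set differed little. Neurod1 was 4.09-fold higher, Neurog2 1.82-fold and Eomes 1.76-fold. Neurod6 was 1.19-fold higher, Neurod2 1.20-fold lower, and Bhlhe22 overlapped between the groups. Summed, Neurog2, Eomes and Neurod1 made 18.9 to 21.4 FPKM in wild type, against 49.1 to 60.6 FPKM in cKO. Neurod2, Neurod6 and Bhlhe22 made 509 to 555 FPKM in wild type, against 537 to 579 FPKM in cKO, with overlap. Over all genes, limma called 15.8% at an adjusted p under 0.05, 7.22% higher and 8.59% lower in cKO. Of the 6 genes it called 3 higher (Neurog2, Eomes, Neurod1) and 1 lower (Neurod2). The groups did not overlap in 5 of the 6, against 37.3% of all genes. Because the genes were chosen on this contrast, these counts describe them and support nothing further.

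**Figure D1:**
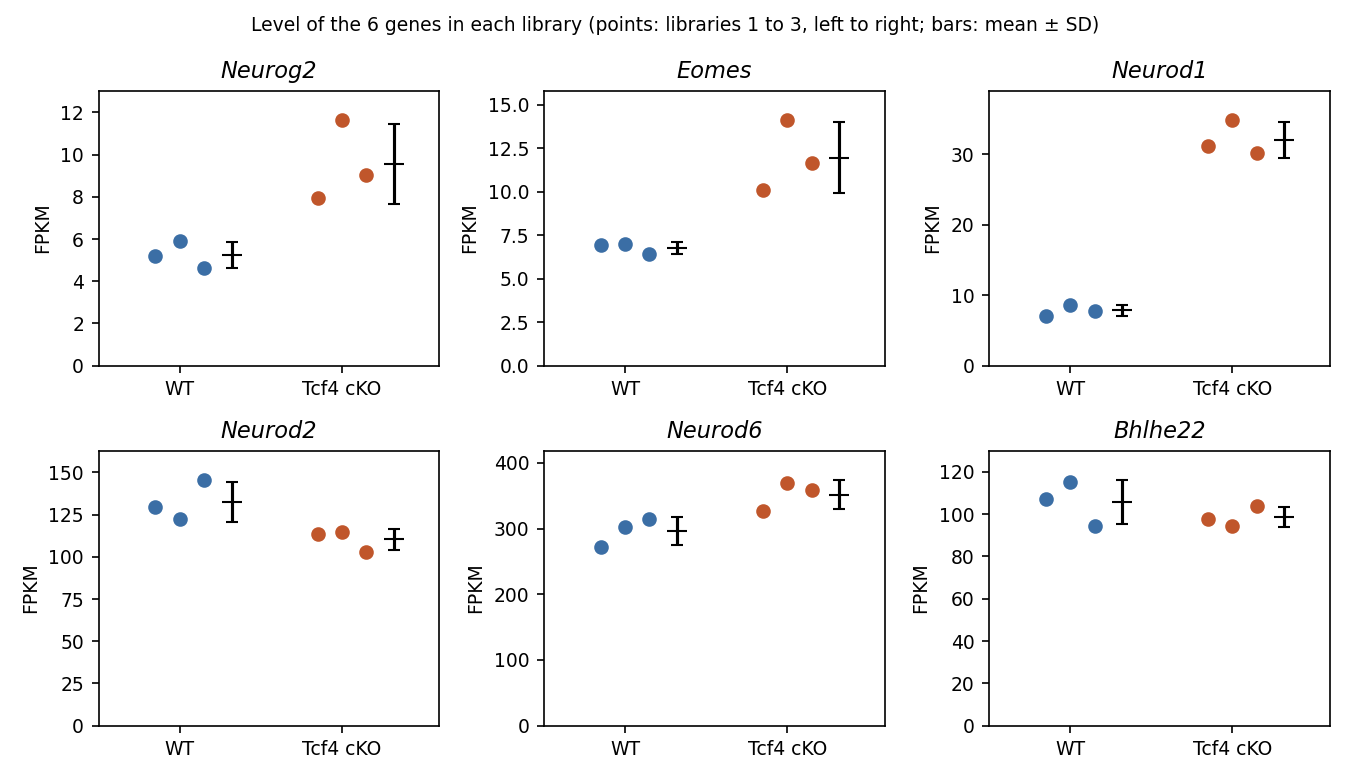
FPKM (vertical axes, from 0, a scale of its own for each gene) of Neurog2, Eomes, Neurod1, Neurod2, Neurod6 and Bhlhe22 in the 3 WT and 3 cKO libraries; points are libraries 1 to 3 from left to right, and bars are the mean ± SD. Every cKO library lies above every WT library for Neurog2, Eomes, Neurod1 and Neurod6 and below for Neurod2, and Bhlhe22 overlaps.

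Neurog2 (ENSMUSG00000027967, chromosome 3, 127633135 to 127635631, plus strand, mm10) is a 2-exon protein-coding gene and the earliest factor of the cascade. Neurog2 RNA stood at 5.17, 5.89 and 4.64 FPKM in WT 1, 2 and 3. In cKO 1, 2 and 3 it was 7.95, 11.6 and 9.03 FPKM. The lowest cKO library stood 1.35-fold above the highest WT library, and cKO 2 was the highest of all. The mean was 9.54 ± 1.90 FPKM in cKO (SD, n = 3), a difference of 0.75 on the log2(FPKM + 1) scale, ranging from 0.61 without cKO 2 to 0.86 without cKO 1. About 242 to 630 reads per library lay behind these values, so counting alone gives an error of up to 6.43%, against an SD of 19.9% of the mean in cKO.

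Eomes (ENSMUSG00000032446, chromosome 9, 118478212 to 118486132, plus strand) marks intermediate progenitors and some Cajal-Retzius cells, the early reelin-secreting neurons of the cortical surface. It was at 6.94, 6.999 and 6.40 FPKM in the WT libraries and at 10.1, 14.1 and 11.7 FPKM in cKO 1, 2 and 3. The WT libraries were close together (SD 4.90% of the mean) and the cKO libraries were spread (16.9%), again with cKO 2 on top and cKO 1 lowest. The cKO mean was 11.96 ± 2.02 FPKM (SD, n = 3), 0.73 higher on the log2(FPKM + 1) scale, with 0.61 to 0.83 when any library was left out. An antisense gene, Gm33460, shares 2.84% of the exon length of Eomes, and without known strand those reads cannot be assigned.

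The proportion of Eomes to Neurog2 overlapped between the genotypes. There were 1.34, 1.19 and 1.38 FPKM of Eomes per FPKM of Neurog2 in WT and 1.27, 1.21 and 1.29 in cKO. Neurod1 differed from both: per FPKM of Neurog2 it was at 1.37, 1.45 and 1.69 in WT and at 3.91, 2.99 and 3.33 in cKO. Per FPKM of Eomes it was at 1.02, 1.224 and 1.222 in WT and at 3.08, 2.47 and 2.58 in cKO. Both ratios with Neurod1 were higher in every cKO library than in any WT library.

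Neurod1 (ENSMUSG00000034701, chromosome 2, 79452521 to 79456751, minus strand) drives cells from the late progenitor state into neuronal differentiation. It was at 7.08, 8.57 and 7.82 FPKM in WT 1, 2 and 3. In cKO 1, 2 and 3 it was at 31.1, 34.8 and 30.1 FPKM. The lowest cKO library was 3.51-fold above the highest WT library, and both groups were narrow (SD 9.51% of the mean in WT and 7.81% in cKO). Its difference, 1.90 on the log2(FPKM + 1) scale, ranked 1 among the increases of all 15703 genes. The rank was 1 to 3 when any library was left out, 2 once a trend on gene length was removed and 9 with a pseudocount of 0.1, which weights low genes more. Neurog2 and Eomes ranked 86 and 96, with 47 and 52 without cKO 1, 196 and 197 without cKO 2, and 209 and 243 with a pseudocount of 0.1. Cerkl, on the same strand, shares 7.37% of the exon length of Neurod1, and the opposite-strand noncoding gene Gm26755 shares 5.64%. Cerkl itself was listed at 0.051, 0.073 and 0 FPKM in wild type, against 0.208, 0.296 and 0.106 FPKM in cKO.

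Neurod2 (ENSMUSG00000038255, chromosome 11, 98325415 to 98329648, minus strand), a factor of postmitotic excitatory neurons, was at 130, 123 and 146 FPKM in wild type, against 113, 115 and 103 FPKM in cKO. The groups did not overlap, but the lowest WT library was only 1.07-fold above the highest cKO library. The cKO mean was 110 ± 6.28 FPKM (SD, n = 3), a difference of −0.26 on the log2(FPKM + 1) scale. With quantile normalisation, which forces the same distribution on every library, it was −0.147, and the call in Neurod2 held in 1 of the 6 fits that left out a library, the fit without WT 2. It was also lost with quantile normalisation and without trend and robust moderation. Neurod2 was chosen on this contrast, so its calls are a description only.

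Neurod6 (ENSMUSG00000037984, chromosome 6, 55677822 to 55681263, minus strand), whose locus drives the widely used Nex-Cre of postmitotic excitatory neurons, lay on the other side. It was at 272, 302 and 315 FPKM in wild type, against 326, 369 and 359 FPKM in cKO, where the mean was 351 ± 22.4 FPKM (SD, n = 3). The lowest cKO library was 1.04-fold above the highest WT library. The difference was 0.25 on the log2(FPKM + 1) scale and 0.402 with quantile normalisation. It was not called in the fit used here, but it was with either smaller pseudocount, with the filter on low genes, with quantile normalisation, with the length trend removed, with the replicate block, and without WT 3 or cKO 1. As for Neurod2, these calls only describe a gene chosen on this contrast. Neurod6 relative to Neurod2 was 2.10, 2.47 and 2.16 in WT and 2.88, 3.22 and 3.48 in cKO, with no overlap.

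Bhlhe22 (ENSMUSG00000025128, chromosome 3, 18054174 to 18057517, plus strand), a single-exon gene for a repressor expressed in postmitotic cortical neurons, did not separate the genotypes. It was at 107, 115 and 94.4 FPKM in wild type, against 97.6, 94.5 and 104 FPKM in cKO. WT 3 was the lowest of the 6 libraries and WT 2 the highest. The difference of −0.09 on the log2(FPKM + 1) scale was smaller than the pooled SD of 0.113 on that scale, and it was 0.0143 with quantile normalisation. Relative to Bhlhe22, Neurod2 was at 1.21, 1.06 and 1.54 in WT and at 1.16, 1.21 and 0.993 in cKO, also with overlap. Between 7395 and 19294 reads lay behind each value of Neurod2, Neurod6 and Bhlhe22, so counting error was at most 1.16%.

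Among the Neurod genes Neurod1 made up 1.73%, 1.98% and 1.67% of the summed FPKM of Neurod1, Neurod2 and Neurod6 in WT. It made up 6.61%, 6.71% and 6.12% in cKO. Neurod6 was the most abundant of the 3 in every library.

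**Figure D2:**
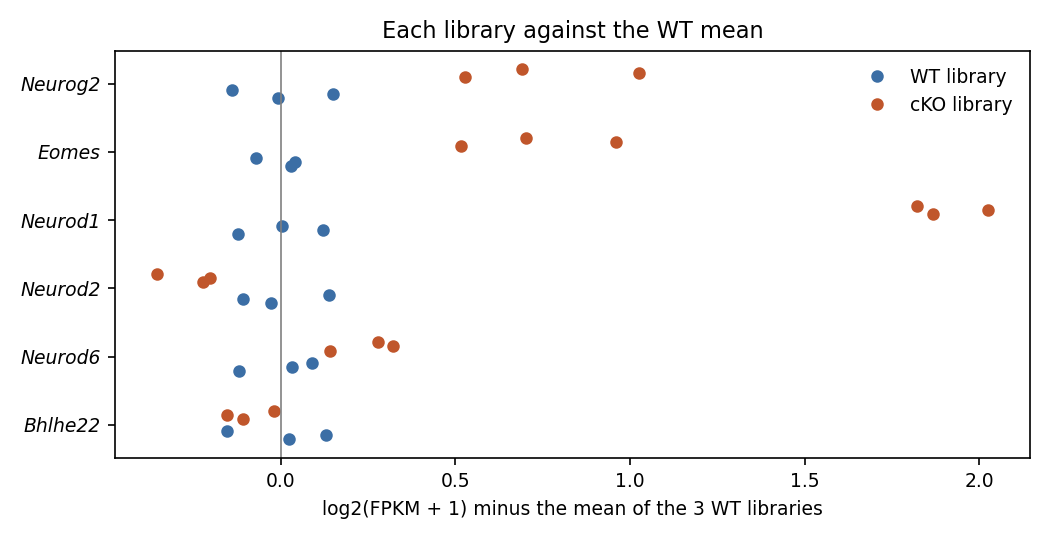
The log2(FPKM + 1) of each library minus the mean of the 3 WT libraries (horizontal axis), for each of the 6 genes (rows); blue points are WT and orange points cKO libraries. Neurod1 stands apart in all 3 cKO libraries, Neurog2 and Eomes sit at nearly the same distance from WT, and Neurod2 and Neurod6 lie on opposite sides of 0.

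**Figure D3:**
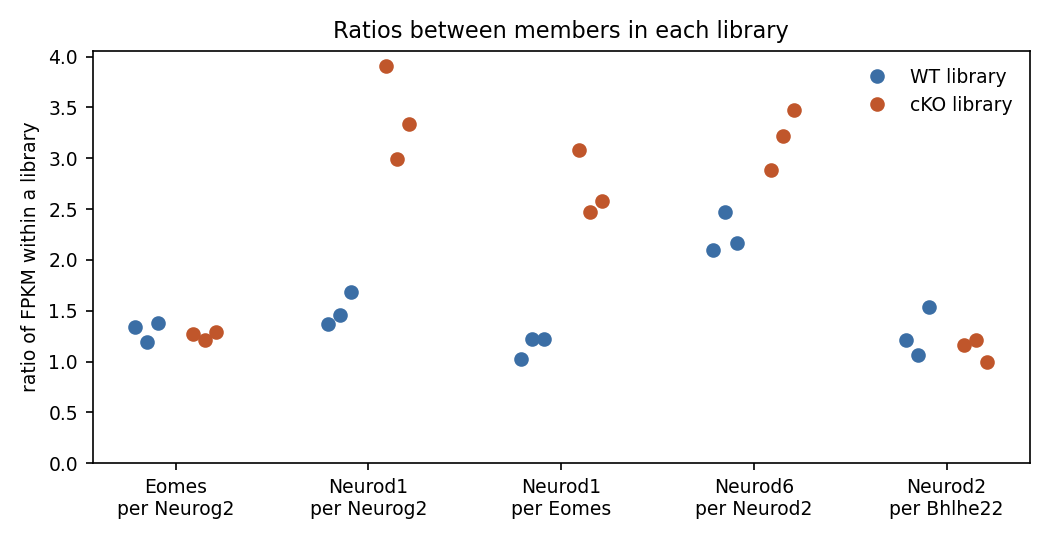
Ratio of FPKM between pairs of the 6 genes within each library (vertical axis, from 0) for WT (blue) and cKO (orange). Eomes per Neurog2 and Neurod2 per Bhlhe22 overlap between the genotypes, while both ratios with Neurod1 and the ratio of Neurod6 to Neurod2 do not.

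RefSeq promoter windows (GRCm38.p6, 250 bases before to 50 after the annotated start, 300 in all) were held for 5 of the 6 genes, Bhlhe22 being the one without an entry. The windows of the Neurod genes are shown because these paralogs differed from each other between the genotypes. They are written 5′ to 3′ on the strand of the gene, with every E-box (CANNTG, where N is any base and both strands read the same) in capitals. The windows are chr2:79456587-79456886 (minus strand), chr11:98329596-98329895 (minus strand) and chr6:55681214-55681513 (minus strand).
Neurod1: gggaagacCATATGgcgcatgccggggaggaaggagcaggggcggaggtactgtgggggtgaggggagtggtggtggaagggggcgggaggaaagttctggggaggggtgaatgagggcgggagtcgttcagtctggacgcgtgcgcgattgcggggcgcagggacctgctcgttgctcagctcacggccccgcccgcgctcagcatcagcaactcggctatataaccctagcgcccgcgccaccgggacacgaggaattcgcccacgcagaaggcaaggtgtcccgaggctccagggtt
Neurod2: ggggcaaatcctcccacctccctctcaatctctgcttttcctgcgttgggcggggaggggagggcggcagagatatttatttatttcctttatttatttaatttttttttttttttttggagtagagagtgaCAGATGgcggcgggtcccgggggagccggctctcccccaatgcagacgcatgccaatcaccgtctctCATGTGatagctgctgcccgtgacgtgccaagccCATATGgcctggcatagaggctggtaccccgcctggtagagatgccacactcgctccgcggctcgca
Neurod6: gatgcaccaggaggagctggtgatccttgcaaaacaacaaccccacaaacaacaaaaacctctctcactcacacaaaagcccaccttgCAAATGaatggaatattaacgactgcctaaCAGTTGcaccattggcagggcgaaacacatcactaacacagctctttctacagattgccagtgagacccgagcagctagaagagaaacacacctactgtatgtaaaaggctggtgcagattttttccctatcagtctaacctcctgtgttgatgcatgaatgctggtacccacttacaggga

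Neurod1 held 1 E-box in this window, CATATG, whose first base was at −242 from the start. Neurod2 held 3, at −118 (CAGATG), −51 (CATGTG) and −17 (CATATG), and Neurod6 held 2, at −162 (CAAATG) and −132 (CAGTTG). The windows of Neurog2 (chr3:127632886-127633185, plus strand) and Eomes (chr9:118477939-118478238, plus strand) held 0. Over 32851 RefSeq promoter windows of the same length, 72.3% held at least 1 E-box, 39.6% at least as many as Neurod6 and 17.6% at least as many as Neurod2. CATATG was found in 3.91% of all windows and CAGATG, on either strand, in 17.2%. The forms CAGCTG (16.3% of all windows) and CACCTG (20.2%) were in none of the 5 windows on either strand, nor was TCACACCT, a T-box motif (1.28%). These are matches of letters in a short window and show no binding.

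Genes of dividing cells, among which are the progenitors that express Neurog2 and Eomes, were read beside them. Of 19 measured, 6 rose (31.6%, against 7.22% of all genes), 0 fell and 13 did not pass. The median log2 difference was 0.238, against 0.00168 over all genes. Among those that rose were the spindle genes Tpx2 (4.57 ± 0.430 to 6.06 ± 0.203 FPKM, limma adjusted p = 0.0184) and Kif11 (3.403 ± 0.206 to 4.66 ± 0.559 FPKM, limma adjusted p = 0.0287), with Bub1b and Cdc20 (limma adjusted p = 0.0367 and 0.0385). The count was 0 without WT 1, without cKO 2 or without cKO 3, 2 without WT 3, 6 without WT 2 and 8 without cKO 1. At the library level, cKO 2 was highest and cKO 1 lowest among the cKO libraries both in Neurog2 and Eomes and in the proliferation genes Mki67 (8.21, 11.9 and 9.44 FPKM in cKO 1, 2 and 3) and Top2a (8.99, 11.97 and 11.2 FPKM), which were picked after their values were seen. Tpx2 and Cdc20 had the same order, but the whole list did not share it. Kif11 (4.02, 4.93 and 5.03 FPKM in cKO 1, 2 and 3) and Bub1b (4.49, 5.005 and 5.046 FPKM) were highest in cKO 3. Per FPKM of Mki67, Neurog2 was at 0.761, 0.741 and 0.787 in WT and at 0.968, 0.975 and 0.956 in cKO, and Eomes at 1.02, 0.881 and 1.08 in WT and at 1.23, 1.18 and 1.23 in cKO. Neurod1 was at 1.04, 1.08 and 1.33 per FPKM of Mki67 in WT and at 3.79, 2.92 and 3.19 in cKO. All 3 ratios, chosen after their values were seen, were without overlap, as they were per FPKM of Top2a. Both Mki67 and Top2a were called higher, and ratios to other genes of the list were not taken. The part of dividing cells in the levels of Neurog2, Eomes and Neurod1 was not tested.

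Markers of other cell types were read beside the 6 genes, first those of cells known to express some of them. Each count of markers called is to be read beside the shares over all genes, 7.22% higher and 8.59% lower in cKO. Of 10 markers of hippocampus and dentate gyrus, where young granule neurons express Neurod1, 8 were listed; 0 rose and 1 fell (Fibcd1). Their sum was 21.4 to 24.2 FPKM in wild type, against 20.2 to 25.7 FPKM in cKO, and the dentate factor Prox1 was at 3.58, 3.58 and 2.96 FPKM in wild type, against 2.77, 3.44 and 3.38 FPKM in cKO. Of 9 Cajal-Retzius markers 8 were listed, 1 rose (Cacna2d2, a call lost without WT 1, WT 3, cKO 1 or cKO 3, with limma adjusted p reaching 0.097 without cKO 1) and 1 fell (Calb2), while Ndnf was called higher without WT 2 and with the replicate block. Their sum was 48.1 to 53.4 FPKM in wild type, against 52.3 to 59.7 FPKM in cKO. The 7 listed astrocyte markers summed to 97.9 to 124 FPKM in wild type, against 63.8 to 76.4 FPKM in cKO, and 6 of them fell. Among the 6, Gja1 lost its call without WT 1, WT 2, cKO 1 or cKO 2. That call was also lost without trend and robust moderation and with the replicate block. Sums were also lower for the oligodendrocyte lineage (62.6 to 71.2 FPKM in WT, 47.7 to 55.7 FPKM in cKO) and for microglia (19.5 to 23.5 FPKM in WT, 11.3 to 17.6 FPKM in cKO). Of the 7 oligodendrocyte lineage markers 2 fell, Olig1 and Pdgfra, of which Pdgfra lost its call without WT 1 or cKO 1. Of the 7 listed microglia markers 3 fell, the complement genes C1qa, C1qb and C1qc, and all 3 lost their calls without WT 1, C1qa and C1qb also without WT 3 or cKO 1. C1qb lost its call without WT 2 or cKO 2 too, and with a pseudocount of 0.1. The same call was lost without trend and robust moderation, with the length trend removed and with the replicate block. Of 11 markers of GABAergic interneurons, which lie outside the Emx1 lineage, 4 fell (Gad2, Dlx2, Sp8 and Sst) and 0 rose, while their sum overlapped (192 to 219 FPKM in WT, 192 to 208 FPKM in cKO). Gad2, Sp8 and Sst lost their calls without WT 1 or cKO 1, and Gad2 and Sst also without WT 3 or cKO 2. Gad2 lost its call without cKO 3 as well, and Sst with the length trend removed. Npy, another interneuron gene, was called higher without WT 3, with quantile normalisation and with the length trend removed. Cdhr1, the 1 gene listed of 5 names for olfactory bulb projection neurons, which also express Eomes, fell and was under 1 FPKM in every library (0.426 to 0.594 FPKM in wild type, against 0.160 to 0.236 FPKM in cKO). The part of these cell types in the levels of the 6 genes was not tested.

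The other factors of the pathway were read from 10 lists of related genes, 113 measured genes in all besides the 6, of which 18 rose and 23 fell. The targeted gene Tcf4 is among the 23. Without WT 1, WT 3, cKO 2 or cKO 3 the count that rose was 8, 11, 8 and 9. Over all genes 7.22% rose and 8.59% fell, and the list counts are to be read beside these shares. Among dimer partners, Tcf3 rose (15.9 ± 0.580 to 18.8 ± 0.978 FPKM, limma adjusted p = 0.0465), a call that held in 1 of 6 fits with a library left out, the fit without WT 2 (adjusted p reaching 0.184, without cKO 2), and that was lost with quantile normalisation and without trend and robust moderation, and Tcf12 did not pass (adjusted p = 0.0986 in limma). Of 9 bHLH inhibitors and Hes or Hey repressors, 2 fell (22.2%, against 8.59% of all genes) and 0 rose. Id2 went down from 313 ± 61.6 to 35.9 ± 5.12 FPKM (adjusted p = 2.93e-06 in limma), Id3 from 10.9 ± 0.991 to 5.37 ± 0.551 FPKM (adjusted p = 0.000178 in limma). The Notch effectors Hes1 (1.74 ± 0.118 and 2.27 ± 0.430 FPKM) and Hes5, which repress proneural genes, did not pass.

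Of 17 measured genes known as targets of Neurog2, 13 did not pass. The 2 that rose made 11.8%, against 7.22% of all genes. The 2 that fell (4 without WT 2) made 11.8%, against 8.59% of all genes. The median log2 difference of the 17 was −0.082. The RNA-binding protein gene Elavl4 rose from 29.1 ± 2.97 to 43.1 ± 2.80 FPKM (adjusted p = 0.0019 in limma) and Mfng, a glycosyltransferase that modifies Notch, from 3.02 ± 0.251 to 4.36 ± 0.251 FPKM (adjusted p = 0.00943 in limma). The receptor genes Sstr2 (2.83-fold, limma adjusted p = 0.0003) and Plxna2 (1.31-fold, limma adjusted p = 0.00365) fell. The Notch ligand Dll1 was at 4.73 ± 0.607 FPKM in wild type, against 4.60 ± 0.693 FPKM in cKO. The migration gene Rnd2 was at 16.3 ± 1.36 and 17.3 ± 1.67 FPKM. Neurod4, another Neurod family gene and a target of Neurog2, was listed at 0.276 to 0.370 FPKM in wild type, against 0.126 to 0.357 FPKM in cKO.

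Beside Eomes and Neurog2, 14 further markers of intermediate progenitors were measured, with a median log2 difference of 0.0202. Of these, 3 rose (Rhbdl3, Mfng and Mfap4) and 1 fell (Sstr2, 2 without WT 2). That made 21.4% higher and 7.14% lower, against 7.22% and 8.59% of all genes. Rhbdl3, a rhomboid-family gene, rose from 1.56 ± 0.212 to 2.87 ± 0.502 FPKM (adjusted p = 0.0067 in limma). Mfap4 lost its call without WT 1, WT 3, cKO 2 or cKO 3 (limma adjusted p reaching 0.138, without cKO 2). Insm1, a zinc finger factor of these cells, was at 24.4 ± 1.6 FPKM in wild type, against 15.2, 23.2 and 23.5 FPKM in cKO, missing the threshold.

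Of 15 apical progenitor genes measured, 2 rose (Prom1, Emx2) and 5 fell (Fabp7, Sox9, Ptprz1, Tnc, Hopx). That made 13.3% higher and 33.3% lower, against 7.22% and 8.59% of all genes. Of the 7 listed astrocyte markers 6 fell too, and values from bulk tissue do not tell radial glia from astrocytes. Slc1a3, which is on both lists, did not pass. The part of astrocytes in the apical progenitor counts was not tested. Fabp7, a fatty acid binding protein gene of radial glia, went from 454 ± 4.25 to 312 ± 47.5 FPKM (adjusted p = 0.00562 in limma), and Prom1, which encodes an apical membrane protein, from 2.93 ± 0.167 to 4.45 ± 0.0486 FPKM (adjusted p = 0.00321 in limma). Pax6, which acts upstream of Neurog2, was at 2.30, 2.20 and 2.27 FPKM in wild type, against 2.54, 3.19 and 2.73 FPKM in cKO and missed the threshold (adjusted p = 0.113 in limma). The count that fell was 1 without WT 1, 2 without cKO 1, 3 without cKO 3 and 4 without WT 2, WT 3 or cKO 2, and 1 gene rose without WT 1, WT 3, cKO 2 or cKO 3. Of 17 Notch pathway genes 2 rose (11.8%, against 7.22% of all genes) and 0 fell. The 2 were Maml2, a coactivator, and Mfng, and 3 rose without WT 2. Among 10 other bHLH genes, Bhlhe40 rose from 3.46 ± 0.248 to 6.23 ± 0.193 FPKM (adjusted p = 0.000361 in limma), and Olig1 of the oligodendrocyte lineage fell. These made 10% in each direction, near the 7.22% higher and 8.59% lower of all genes.

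Downstream of the cascade, the list held T-box factors and factors of projection neuron identity. Of 19 measured, 2 rose (Pou3f2 and Nfib, 10.5%, against 7.22% of all genes), and the median log2 difference was −0.238. A further 9 factors (47.4%, against 8.59% of all genes) fell. Those with the smallest p were Pou3f1 (33.3 ± 2.18 to 18.7 ± 1.26 FPKM), Rorb (3.98 ± 0.186 to 1.79 ± 0.180 FPKM), Zbtb18 (289 ± 14.9 to 202.5 ± 5.62 FPKM) and the cofactor Lmo4 (65.0 ± 2.53 to 44.3 ± 1.41 FPKM), where limma gave adjusted p between 0.000126 and 0.000622. Without WT 1 or cKO 2, or with the length trend removed, 1 factor rose, and Nfib lost its call in each case (limma adjusted p reaching 0.103 over the libraries left out, without cKO 2). The count that fell was 7 without WT 1, cKO 1 or cKO 2, where Foxp1 and Foxp2 lost their calls. It was 10 with the replicate block and 11 with the length trend removed. Tbr1, the T-box relative of Eomes that follows it in the lineage, was at 43.6 ± 1.13 and 39.5 ± 1.36 FPKM and missed the threshold (adjusted p = 0.129 in limma).

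Genes reported to depend on the late factors were a list of 5. Of these, 3 fell (60%, against 8.59% of all genes) and 1 rose (20%, against 7.22% of all genes). Prdm8, which encodes the partner with which Bhlhe22 represses, fell from 9.02 ± 0.658 to 3.64 ± 0.234 FPKM (adjusted p = 2.36e-05 in limma), while Bhlhe22 itself overlapped between the genotypes. Cdh11, a cadherin gene that this pair represses, was 1.54-fold lower (17.1 ± 1.34 FPKM in WT, limma adjusted p = 0.00242). The axon guidance genes Cntn2 and Robo1, reported as dependent on Neurod2 and Neurod6, moved in opposite directions: Cntn2 fell from 101 ± 1.55 to 16.9 ± 0.737 FPKM (adjusted p = 9.54e-09 in limma) and Robo1 rose from 35.9 ± 2.10 to 69.9 ± 2.84 FPKM (adjusted p = 1.78e-05 in limma). The calcium sensor Stim1, a target of Neurod2, did not pass (adjusted p = 0.112 in limma).

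**Figure D4:**
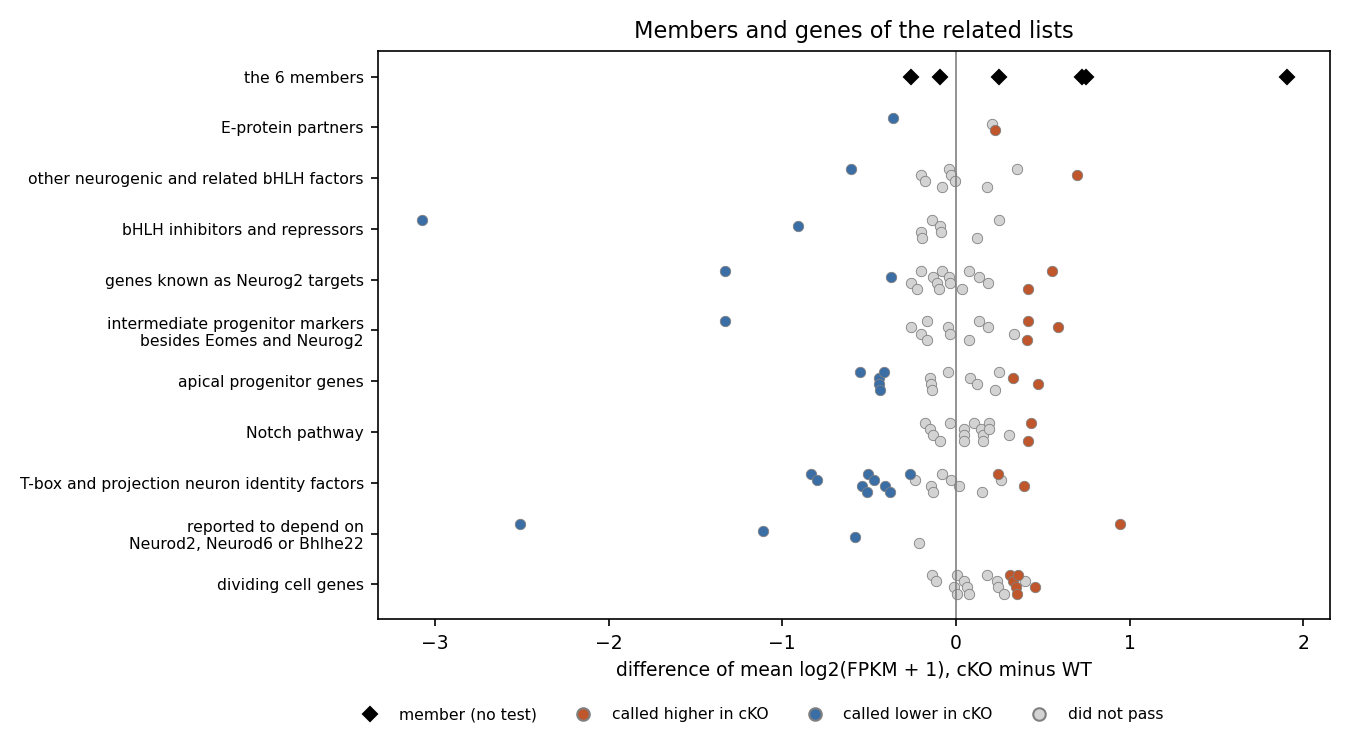
Difference of the mean log2(FPKM + 1), cKO minus WT (horizontal axis), of the 6 genes (black diamonds, no test) and of the measured genes of the 10 related lists (rows; orange, called higher; blue, called lower; grey, did not pass). Neurod1 lies further to the right than any gene of the lists, and Id2 and Cntn2 lie furthest to the left.

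Genes with the most similar pattern over the 6 libraries were sought by the root mean square difference of log2(FPKM + 1), after each gene's WT mean was subtracted, among genes with a mean of at least 1 FPKM, sex-linked, predicted and pseudogenes left out. For Neurog2 these were Sema3c (0.126), Kirrel (0.130) and Thap2 (0.132), and 10 genes lay within 0.15. For Eomes they were Zfhx4 (0.103), Sema3c (0.105) and Bmp3 (0.120), with 20 genes within 0.15. Sema3c, a secreted guidance cue, was at 17.9, 18.6 and 15.4 FPKM in wild type, against 24.8, 29.2 and 28.6 FPKM in cKO. No gene lay within 0.15 of Neurod1, whose nearest were Arhgap28 (0.272), Mc4r (0.320) and Adgrg6 (0.323). Arhgap28 was at 3.93, 4.37 and 4.43 FPKM in wild type, against 16.35, 14.4 and 12.7 FPKM in cKO. The late factors had many near neighbours, with 1928 genes within 0.15 of Neurod2, 2172 of Neurod6 and 3941 of Bhlhe22. The measure keeps the size of the difference, so a gene that changed little lies near all others that changed little. The numbers of near genes therefore largely restate the differences on which the 6 genes were chosen, and are no separate result. The nearest were Alkbh6, Smim24 and Gbas for Neurod2, Zfp606, Cd320 and Prdm15 for Neurod6, and B4galt5, Zfand2b and Plppr1 for Bhlhe22, at 0.0264 to 0.0402.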

How the data were processed

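RNA was extracted with Trizol and sequenced after a TruSeq RNA preparation, per the labels' protocols. The authors deposited FPKM values, named so in the file header. The submitters' processing notes name bcl2fastq 1.8.4, STAR 2.5.4b, featureCounts 1.6.1, R 3.4.1, DESeq2 1.22.1 and mm10. Which annotation release, strand setting or low-count filter the authors used was not stated in these sources. The table held 15703 genes, and 139 blank lines were left out. By identifier 15661 genes matched GENCODE M21 (mm10), which gave coordinates and exon lengths. Depth was sought as the library size at which values of up to 50 reads were whole. Within 0.1 of a whole read, 94.8% to 96.0% of values fitted, against 19.1% to 24.2% at a wrong size. The median-of-ratios factors were 1.003 in each library, so the deposited values were already on a common scale.

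limma 3.58.1 in R 4.3.3 was fitted to log2(FPKM + 1) of all genes (pseudocount 1, mean-variance trend, robust moderation, genotype as the only term), with Benjamini-Hochberg adjustment and calls at an adjusted p under 0.05. It was tested on simulated data. Fold changes are ratios of mean FPKM, since the log2(FPKM + 1) scale understates the change of low genes. Tables and motif counts used Python 3.11.15, pandas 2.3.3 and numpy 2.4.6. The 6 genes, the lists and the tests were chosen with earlier results of these data known. From each list every called gene was named where 5 or fewer were called in a direction, otherwise the 4 with the smallest p, and for each of the 6 genes the 3 nearest in pattern. Other genes named, such as Pax6, Hes1, Dll1, Rnd2, Insm1 and Tbr1, were chosen after their values were seen. Alternatives were other pseudocounts (0.1 and 0.5), a filter at a mean of 1 FPKM, 2 rescalings, limma without trend or robust moderation, removal of a length trend, the replicate number as a block and each library left out. Results that need items withheld here are not reported.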

Additional observations from a re-analysis of the deposited data

How the results depend on the processing

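Under the 8 settings that kept all 6 libraries, the counts called over all genes and over the 113 related genes stayed within 1.5 times those given. Single lists moved further: the E proteins called higher went from 1 to 0 with quantile normalisation and without trend and robust moderation, and the projection neuron factors called higher from 2 to 1 with the length trend removed. Leaving out 1 library moved the number of all genes called higher to between 544 and 1572 (1134 with all 6) and lower to between 830 and 1517 (1349), with the lowest counts without WT 1, cKO 1 or cKO 2. Of the 113 related genes, 8 to 20 were called higher (18) and 17 to 24 lower (23). No called difference of the 6 genes or of the list genes named by rule changed sign under these settings, and other called genes were not checked for it. Of the 6 genes, 3 to 4 were called higher and 0 to 1 lower, since Neurog2, Eomes and Neurod1 were called under every setting, Neurod6 under some and Neurod2 under some, not with quantile normalisation or without trend and robust moderation. Because the 6 genes were chosen on this contrast, calls that persist describe them and support nothing further. The difference in Neurod1 was 2.02 with a pseudocount of 0.1. With the replicate number as a block, 1274 genes were called higher and 1541 lower. The numbers are not stated to pair the libraries, and the deviations of same-numbered libraries correlated at −0.0427, 0.109 and −0.0377. Depth limits the precision of Neurog2 most, at about 242 reads in its lowest library.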
